A study of Mus musculus with 2 samples.

Results

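Type I interferon-stimulated genes were described across the cell types of mouse spleen. The set held 49 named genes of the 31017 gene rows in the count table, and each of the 49 had a row of its own. Members were chosen by name, and their summed unique molecular identifiers (UMIs, counts of captured transcript molecules) were compared across cell types set by raw lineage markers. The study made single-cell 3′ RNA libraries of spleen cells from 2 mice aged 6 to 8 weeks, a WAS-KO mouse and a WT mouse. The labels enter Wiskott-Aldrich syndrome as the mouse model of both, a human immune deficiency caused by loss of WASp, an actin regulator of blood cells. They give no strain and no allele. The 7524 barcodes were all distinct and carried 1 shared suffix and no map to the 2 mice, so they were 1 pooled sample. WAS-KO and WT cells cannot be told apart here, no p-value is given, and every interval (95%, exact unless said otherwise) covers counting error only. Libraries of the 3′ kind count the end of each transcript, so levels were not divided by gene length.

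Type I interferons are secreted when cells sense foreign nucleic acid, and almost every nucleated cell carries their receptor, Ifnar1 with Ifnar2. The receptor's kinases Jak1 and Tyk2 lead to a complex with Stat2 and Irf9, which binds the interferon-stimulated response element before antiviral genes. The products block virus entry, translation and budding, sense viral RNA and DNA, or feed back on the pathway. Some members, such as Irf7, Bst2 and Cxcl10, are also known to be set by lineage or by interferon gamma.

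Of the 7524 barcodes, 6588 passed the limits of at least 200 detected genes and at most 10% mitochondrial UMIs, and the median depth was 5339 UMIs. Lineage markers placed 5575 of them (84.6%) in a class, and 1013 had no class. B cells numbered 2948, T cells 1078 (502 with Cd4 and 329 with Cd8a or Cd8b1), macrophages 495, erythroid cells 348, NK cells 301, neutrophils 169, monocytes 105, conventional dendritic cells 60 and plasma cells 35. These 9 classes entered the comparison. Plasmacytoid dendritic cells (8), megakaryocytes or platelets (26) and basophils or mast cells (2) were too few. Every marker of each of the 9 classes had UMIs in its own class, and its own list was the strongest in each, as with 8930 CPM (UMIs per 1000000 UMIs of a class) for B cell markers in B cells, against 91.3 CPM in T cells. Macrophages had a median of only 828 UMIs a cell, and neutrophil markers reached 2520 CPM among them, beside 12800 for macrophage markers. Barcodes of other classes with over 5% haemoglobin UMIs were left out, a limit set after the data were seen. Those 106 barcodes included 71 with macrophage markers, among which Rsad2 stood at 725 CPM. With them kept in their classes, the lineage-limited members described next were Isg15, Rsad2, Oasl2, Ifi204 and Pml, without Isg20 and Cxcl10.

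Promoters of 6 members are shown because their genes carry the contrasts described next: Isg15, Rsad2 and Ifit1 were abundant in erythroid cells, Ifit3 was not, Cxcl10 was highest in macrophages and Pml in B cells. Capitals mark the core of the interferon-stimulated response element, searched as GAAA, any 2 bases and GAAA again, on both strands with overlaps counted. On the other strand a match reads TTTC, any 2 bases and TTTC. The 250 bases before each start are from RefSeq (GRCm38.p6), read 5′ to 3′ on the gene's strand.
Isg15: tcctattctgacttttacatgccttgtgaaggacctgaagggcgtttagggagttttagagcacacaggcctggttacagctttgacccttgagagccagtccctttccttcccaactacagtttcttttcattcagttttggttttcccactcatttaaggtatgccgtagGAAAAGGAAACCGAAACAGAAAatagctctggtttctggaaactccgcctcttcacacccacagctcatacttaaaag
Rsad2: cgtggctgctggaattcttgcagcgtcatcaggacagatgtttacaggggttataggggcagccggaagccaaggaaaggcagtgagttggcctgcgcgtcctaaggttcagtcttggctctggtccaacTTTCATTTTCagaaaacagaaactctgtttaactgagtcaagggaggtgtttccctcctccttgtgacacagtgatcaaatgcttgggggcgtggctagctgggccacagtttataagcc
Ifit1: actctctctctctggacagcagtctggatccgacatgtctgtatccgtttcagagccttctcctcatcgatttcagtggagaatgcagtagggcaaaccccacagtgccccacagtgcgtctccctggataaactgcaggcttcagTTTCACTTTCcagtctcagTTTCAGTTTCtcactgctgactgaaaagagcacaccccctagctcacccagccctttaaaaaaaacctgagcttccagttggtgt
Ifit3: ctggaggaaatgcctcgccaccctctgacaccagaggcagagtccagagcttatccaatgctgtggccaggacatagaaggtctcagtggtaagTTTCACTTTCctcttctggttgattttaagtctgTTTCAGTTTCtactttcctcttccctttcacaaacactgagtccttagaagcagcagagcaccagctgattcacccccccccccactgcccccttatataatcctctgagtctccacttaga
Cxcl10: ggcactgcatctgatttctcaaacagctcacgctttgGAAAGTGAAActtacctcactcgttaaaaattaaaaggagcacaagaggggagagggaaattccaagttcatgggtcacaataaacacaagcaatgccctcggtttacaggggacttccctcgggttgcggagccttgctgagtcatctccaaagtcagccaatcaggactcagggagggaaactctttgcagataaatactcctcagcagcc
Pml: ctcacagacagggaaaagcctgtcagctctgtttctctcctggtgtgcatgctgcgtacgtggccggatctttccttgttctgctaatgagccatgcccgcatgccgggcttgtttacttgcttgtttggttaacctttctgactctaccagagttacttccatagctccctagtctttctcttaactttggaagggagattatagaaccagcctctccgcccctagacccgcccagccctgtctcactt
These lie at chr4:156200819-156201068 (minus strand) for Isg15, chr12:26456453-26456702 (minus) for Rsad2, chr19:34640639-34640888 (plus) for Ifit1, chr19:34583279-34583528 (plus) for Ifit3, chr5:92348890-92349139 (minus) for Cxcl10 and chr9:58249787-58250036 (minus) for Pml. Isg15 held 3 overlapping matches, Ifit1 and Ifit3 held 2 each, Rsad2 and Cxcl10 held 1 each, and Pml held none. RefSeq windows of 300 bases (250 before to 50 after the start) were at hand for 38 members. Of these, 20 (52.6%) held the motif, against 1079 of 27025 genes with a window (3.99%). By the classes of reach given next, it was held by 8 of 11 intermediate members (72.7%), 3 of 5 lineage-limited members (60%) and 9 of 22 shared members (40.9%). Ifit2 and Isg20 had windows without it. A match describes letters in the window and not a bound site.

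Most members reached many lineages at the limit used. A class was counted as reached when a member's level there, in CPM, was at least 25% of its level in its highest class. By that rule 32 members were shared (at least 5 of the 9 classes), 11 reached 3 or 4 classes (Ifit1, Ifit3, Ifit3b, Oasl2, Oas1a, Oas3, Ifih1, Ifi214, Phf11d, Slfn1 and Slfn5) and 6 were lineage-limited (at most 2 classes). The limit sets these counts: at 50% in place of 25%, 7 were shared and 24 lineage-limited. Among all 10243 genes with at least 100 UMIs in classed cells, 74.3% were shared and 11.8% were lineage-limited. The members' 65.3% shared and 12.2% lineage-limited are thus near the background, and their median of 5 classes stood beside 6 for all genes. Members were most often highest in monocytes (16 of 49, against 13.9% of all genes) or macrophages (12, against 13.1%). B cells were highest for 6 members (against 14.5% of all genes), T cells for 5 (against 10.3%) and neutrophils for 4 (against 5.4%). Erythroid cells were highest for 3 (against 2.86%), conventional dendritic cells for 2 (against 10.6%) and NK cells for 1 (against 25%). Summed over all 49 members, monocytes had 8192 CPM, T cells 5634, macrophages 5284, B cells 4803, conventional dendritic cells 3078, NK cells 2849, erythroid cells 2731, neutrophils 2280 and plasma cells 2030. Ifi27l2a supplied much of this: without it the sum was 5314 CPM in monocytes and 1010 CPM in plasma cells. The order of the sums depends on the totals used. With immunoglobulin, haemoglobin and mitochondrial genes left out, 470524 of the 933855 plasma cell UMIs remained. Erythroid cells would then stand above monocytes, with 10908 member UMIs to 951788 UMIs left, against 9899 to 1158862 in monocytes. In single cells, members took a median of 0.759% of a monocyte's UMIs (5th to 95th percentile 0.203% to 1.51%), 0.419% of a T cell's (0.19% to 1.62%), 0.371% of a B cell's (0.145% to 1.28%) and 0.272% of an NK cell's (0.133% to 0.441%). The range was narrowest in NK cells among these 4.

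**Figure D1:**
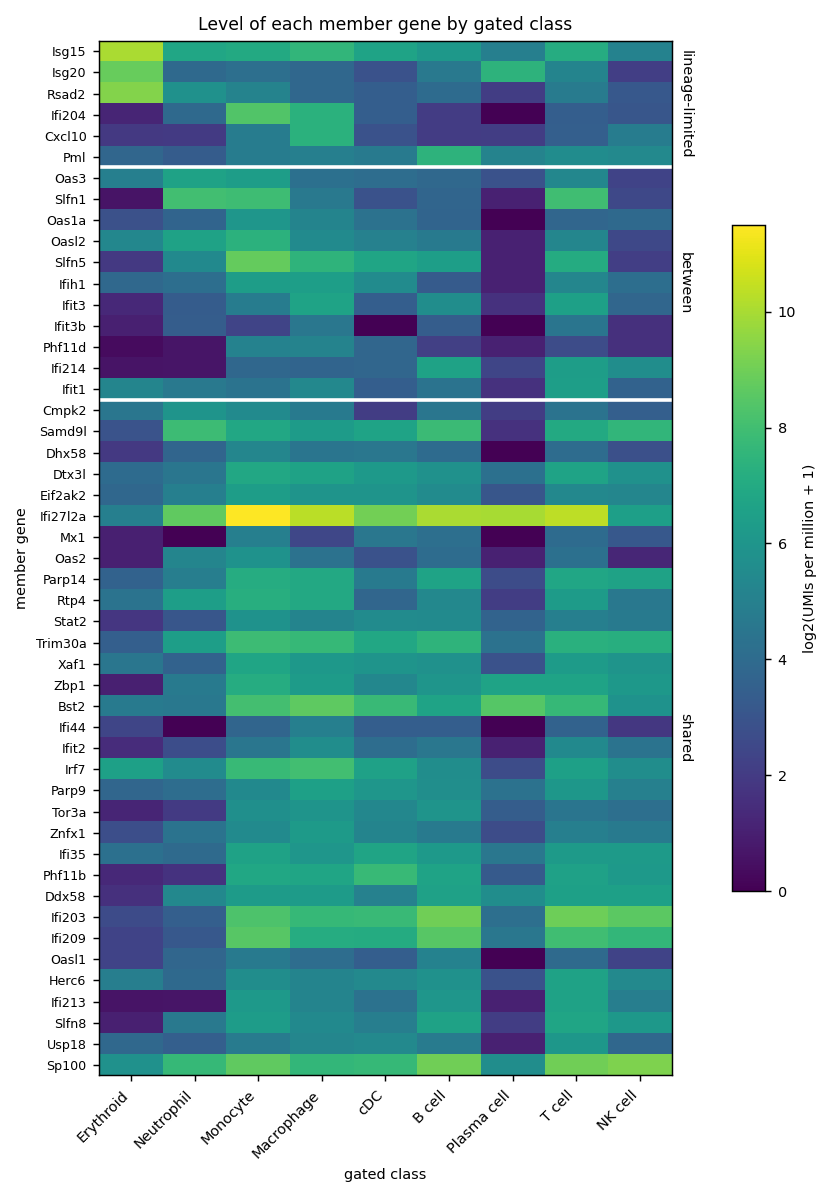
Level of each of the 49 members (rows) in the 9 gated classes (columns) as log2(CPM + 1), with white lines between the 6 lineage-limited, 11 intermediate and 32 shared members. Isg15, Isg20 and Rsad2 are brightest in erythroid cells, Ifi27l2a is bright in most columns, and most shared rows are dark in erythroid and plasma cells.

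Erythroid cells, red cell precursors, held 3 members above every other class: Isg15, a ubiquitin-like protein joined to other proteins after interferon, Rsad2 (viperin), which makes a chain-ending nucleotide, and Isg20, an RNA exonuclease. Isg15 stood at 1050 CPM (1020 to 1090) in erythroid cells, against 190 in macrophages, 139 in T cells, 124 in monocytes, 109 in neutrophils, 99.9 in conventional dendritic cells, 68.7 in B cells, 32.7 in NK cells and 30 in plasma cells. Rsad2 stood at 651 (626 to 676) in erythroid cells, against 56.0 in neutrophils, 33.9 in monocytes, 26.1 in T cells, 15.3 in B cells, 13.5 in macrophages, 9.67 in conventional dendritic cells, 8.01 in NK cells and 3.21 in plasma cells. Isg20 stood at 446 (425 to 467) in erythroid cells, against 171 (146 to 200) in plasma cells, which also reached 25%, 35.4 in T cells, 24.4 in B cells and 3.34 to 17.4 in the other 5 classes. The erythroid level was 5.55 times the next class for Isg15, 11.6 times for Rsad2 and 2.60 times for Isg20. A UMI of Rsad2 was found in 83.9% of erythroid cells (median depth 11431.5 UMIs) and in 2.33% of NK cells (4508 UMIs), or 41.3% and 1.0% after thinning each cell to 1000 UMIs. Haemoglobin, as a mark of free erythroid RNA, reached 0.168% to 0.471% of its erythroid level in the other classes. At those ratios the erythroid Rsad2 level would put 1.09 to 3.06 CPM into them, beside the 3.21 to 56.0 found, the lowest of which was plasma cells with 3 UMIs. Barcodes with over 5% haemoglobin UMIs had been left out of these classes, which lowers the ratios. The part of free erythroid RNA was not tested.

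**Figure D2:**
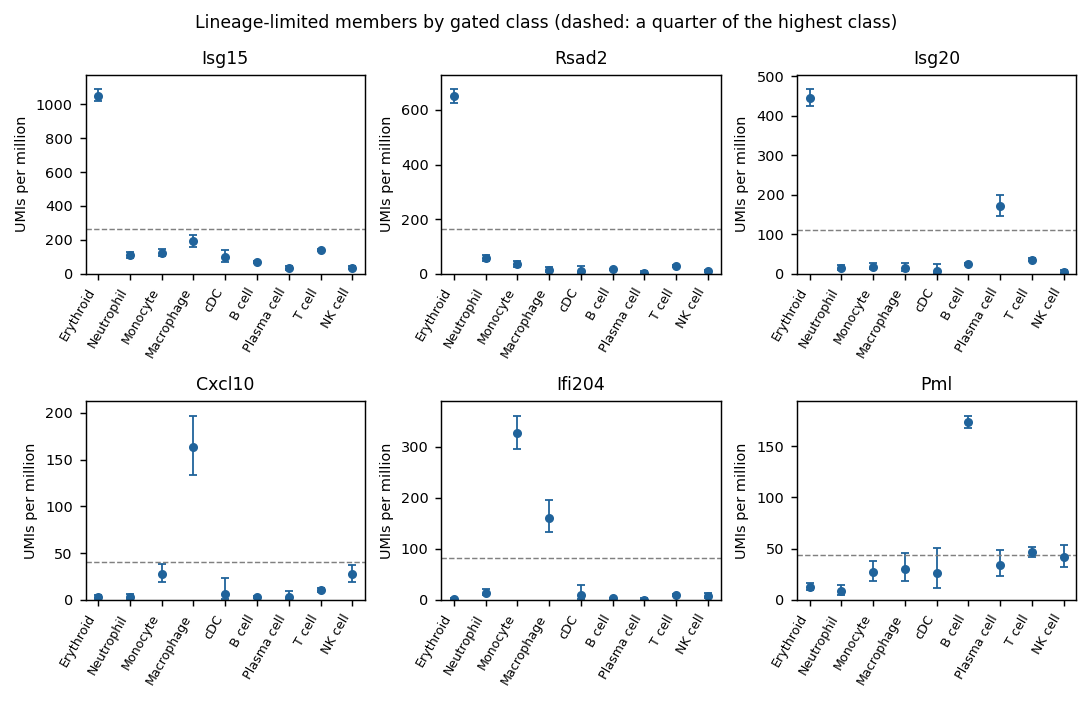
Level of the 6 lineage-limited members in the 9 gated classes, in CPM with exact 95% Poisson intervals, each panel on its own linear axis from 0. Isg15, Rsad2 and Isg20 peak in erythroid cells, Cxcl10 in macrophages, Ifi204 in monocytes and Pml in B cells; the dashed line is 25% of the highest class.

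Other members stood at differing levels in erythroid cells. Ifit1, which binds viral RNA ends, stood at 36.6 CPM in erythroid cells, after T cells (85.8) and macrophages (40.4), whereas its neighbours on chromosome 19 stood at 1.75 (Ifit2), 1.5 (Ifit3) and 1.0 (Ifit3b). Ifit1 thus gave 89.6% of the Ifit UMIs of erythroid cells, against 35.5% in T cells and 19.6% in B cells, and the promoter windows of Ifit1 and Ifit3 printed above both held the motif. Cmpk2, a mitochondrial nucleotide kinase at chr12:26469204-26479837, lies next to Rsad2 (chr12:26442746-26456452) and stood at 21.8 in erythroid cells, against 61.7 in neutrophils. Irf7 (90.4), Oasl2 (39.1) and Oas3 (30) were present, while Mx1, Oas2 and Zbp1 each stood at 1.0 in erythroid cells. The median member was at 6.26 in erythroid cells, against 48.0 in B cells and 74.6 in T cells. Haemoglobin took 75.0% of erythroid UMIs. With immunoglobulin, haemoglobin and mitochondrial genes left out of the totals, 8 members rather than 3 were highest in erythroid cells: Ifit1, Oas3, Irf7, Cmpk2 and Herc6 joined, and Isg15 stood at 4420. On those totals the median member was at 26.3 in erythroid cells, against 52.6 in B cells and 78.6 in T cells.

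Across the erythroid class as gated, these 3 members and several others were higher in cells richer in haemoglobin. In 25 cells with at most 5% haemoglobin UMIs, Isg15 stood at 45 CPM (27.1 to 70.3), Isg20 at 75.8 (51.9 to 107) and Rsad2 had no UMI, which allows up to 7.11 (3 counts). In 25 cells with over 5% to 50%, Isg15 stood at 517, Rsad2 at 241 and Isg20 at 346. In 298 cells with over 50%, they stood at 1220, 761 and 499. Alas2, the first enzyme of haem synthesis in red cells and a marker of the class, stood at 2.37, 925 and 2570 in the same 3 groups, so the 25 cells poorest in haemoglobin went against their class name. Their median haemoglobin share was 0.165%, beside 0.154% of all B cell UMIs. Contrasts with that group may be contrasts between cell types, which was not tested. Bst2, a membrane tether of budding viruses, ran opposite to Alas2 across the 3 groups, at 156, 13.1 and 9.57. Ifit3 stood at 1.20 to 4.38 in the 3 groups, on 1, 1 and 4 UMIs, too few to read a change. Irf7 stood at 19.0, 26.3 and 104 in these groups, Ifit1 at 2.37, 26.3 and 41.6 and Oasl2 at 2.37, 8.76 and 45.8. In the first 2 groups these values rest on 1 to 8 UMIs each, but the intervals of the first and last group lay apart. A higher level in the last group was thus not particular to Isg15, Rsad2 and Isg20. Oas3 had no UMI in the first group and stood at 43.8 and 32.9 in the other two. Of the 26 members with at least 20 UMIs in the first and last group together, 8 were at least 2-fold higher above 50% haemoglobin than at 5% or less (Isg15, Rsad2, Isg20, Ifit1, Oasl2, Oas3, Irf7 and, with an interval that spans 0 on the log2 scale, Usp18), against 5.55% of 4238 such genes. A further 12 were at least 2-fold lower, against 87.7% of those genes, in totals of which haemoglobin itself takes a large part. In the last and first group, Rsad2 had 2544 and 0 UMIs, Oas3 110 and 0, Oasl2 153 and 1 and Ifit1 139 and 1. These members thus passed the UMI minimum through the last group. Since the first group went against its class name, neither count describes erythroid cells alone.

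**Figure D3:**
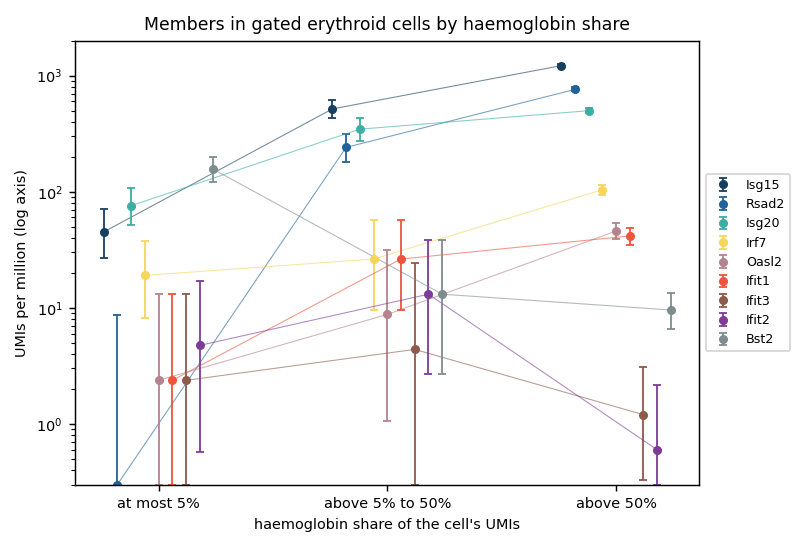
Levels of 9 members in gated erythroid cells split by the haemoglobin share of each cell's UMIs (25, 25 and 298 cells), in CPM on a log axis with exact 95% Poisson intervals; a value of 0 and interval ends under 0.3 are drawn at the lower edge. Isg15, Rsad2, Isg20, Irf7, Ifit1 and Oasl2 are highest above 50% haemoglobin, Bst2 is highest at 5% or less, and Ifit2 and Ifit3 lie under 20 throughout. The group at 5% or less went against its class name, with Alas2 at 2.37 CPM.

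The other 3 lineage-limited members belonged to other classes. Cxcl10, a chemokine for T and NK cells, stood at 163 CPM (134 to 197) in macrophages, against 27.4 in NK cells, 27.3 in monocytes, 10.2 in T cells and 2.75 to 6.45 in the other 5 classes. A Cxcl10 UMI was found in 7.07% of macrophages (median depth 828 UMIs) and 2.33% of NK cells (4508 UMIs). Ifi204, a PYHIN family DNA sensor, stood at 327 (295 to 361) in monocytes and 161 (132 to 195) in macrophages, against 14.1 in neutrophils and 1.25 to 9.78 in 5 other classes. Plasma cells had no Ifi204 UMI, which allows up to 3.21 (3 counts). Pml, which builds nuclear bodies, stood at 174 (168 to 180) in B cells, against 46.9 (42.3 to 51.9) in T cells, just inside the 25% line, and 41.4 (31.7 to 53.1) in NK cells, just outside it. Its breadth of 2 therefore turns on that line. Sp100, the other nuclear body protein among the members, reached 7 classes, at 611 in NK cells, 507 in B cells, 505 in T cells and 54.6 in erythroid cells.

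Other direct antiviral effectors had their highest levels in different classes. Oas1a, Oas2 and Oasl2, of the family of oligoadenylate synthetases that switch on RNase L, were highest in monocytes at 65.4, 57.9 and 166 CPM, while Oas3 was highest in neutrophils (97.9) and close behind in monocytes (83.6). Oasl1 went the other way, with 33.0 in B cells against 25.7 in monocytes and 14.8 in T cells. Mx1, a GTPase that traps viral nucleoproteins, stood at 29.8 in monocytes, 22.6 in conventional dendritic cells, 17.5 in B cells and 15.2 in T cells, and had no UMI in neutrophils, which allows up to 1.7. Eif2ak2 (PKR), which halts translation on double-stranded RNA, reached 7 classes from 82.8 in monocytes. Of the Ifit genes, Ifit2 and Ifit3 were highest in macrophages (49.3 and 100) and next in T cells (42.4 and 92.4). Ifit3b stood at 22.4 in macrophages and 21.1 in T cells. The macrophage and T cell intervals overlapped for all 3 (for Ifit3, 77.6 to 127 in macrophages). Samd9l, an antiviral and growth-restraining protein, was alike in neutrophils (238) and B cells (230).

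Sensors and regulators had their highest levels in different classes too. Ddx58 (RIG-I), a sensor of viral RNA ends, had the widest reach of all 49 members at 8 classes, with 93.3 in B cells, 90.8 in T cells, 90.2 in NK cells and 2.0 in erythroid cells. Ifih1 (MDA5), which senses long double-stranded RNA, stood at 86.7 in macrophages and 83.6 in monocytes but 8.75 in B cells. Dhx58 (LGP2), which tunes both, reached 6 classes from 37.2 in monocytes. Zbp1, a sensor of Z-form nucleic acid, stood at 137 in monocytes, 101 in T cells, 99.6 in plasma cells and 1.0 in erythroid cells. Irf7, the factor that amplifies interferon production, stood at 254 in macrophages, 211 in monocytes, 93.5 in conventional dendritic cells and 91.0 in T cells. Stat2 reached 6 classes, at 57.1 in monocytes, 43.7 in B cells and 2.50 in erythroid cells. Usp18, which removes Isg15 and damps the receptor, was highest in T cells (66.6, against 41.9 in conventional dendritic cells). Herc6, the main Isg15 ligase of the mouse, was also highest in T cells (97.3, against 55.9 in B cells). In the 8 plasmacytoid dendritic cells, the lineage known for interferon production, Bst2 stood at 4190 (3760 to 4670) and Irf7 at 388 (264 to 551).

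Among the remaining members, Ifi27l2a gave the most UMIs, 35972 in classed cells, at 2880 CPM in monocytes, 1320 in T cells, 1260 in macrophages, 1060 in B cells, 1020 in plasma cells and 89.5 in NK cells. The PYHIN genes Ifi203 and Ifi209 were high in lymphocytes: Ifi203 stood at 506 in B cells, 489 in T cells, 387 in NK cells and 314 in monocytes, and Ifi209 at 367 in B cells and 358 in monocytes. Ifi214 reached 3 classes, B (98), T (84.4) and NK cells (48.7), but 63.4% of the 50-base words in the last 500 bases of Ifi209 and Ifi214 are the same, so reads could be split between them. The same holds for Oas1a (56.1% shared with Oas1g) and Phf11b (42.6% shared with Phf11a, Phf11c and Phf11d). Ifi213 reached 5 classes from 96.9 in T cells. Of the Schlafen genes, Slfn1, a brake on T cell growth, stood at 258 in neutrophils, 249 in T cells and 240 in monocytes but 12.3 in B cells and 4.67 in NK cells. Slfn5 stood at 439 in monocytes, 179 in macrophages and 134 in T cells, and Slfn8 reached 6 classes from 108 in T cells. Bst2 reached 6 classes, with 404 in macrophages and 350 in plasma cells.

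Members of the Parp9, Dtx3l and Parp14 group, which modify proteins with ADP-ribose or ubiquitin, were shared: Parp9 was highest in macrophages (91.2), Dtx3l (116) and Parp14 (137) in monocytes. Monocytes were also highest for Trim30a (238), which restrains inflammatory signalling, Rtp4 (148) and Xaf1 (106), a promoter of cell death. Macrophages were highest for Znfx1 (74.8), an RNA helicase, Tor3a (61.3), Phf11d (34.4) and Ifi44 (29.9), and conventional dendritic cells for Phf11b (216) and Ifi35 (103). Erythroid cells stood between 0.25 (Phf11d) and 21.5 (Xaf1) for each of these 12 genes. Plasma cells, strong in Isg20, Ifi27l2a, Bst2 and Zbp1, had 7 of the 49 members at no UMI.

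The Ifit genes were also read cell by cell. A cell was called Ifit-positive with at least 2 UMIs of Ifit1, Ifit2, Ifit3 and Ifit3b together and Ifit-negative with none. Ifit-positive cells made up 22.2% of T cells (239 of 1078, 19.7 to 24.8), 21.0% of monocytes (22 of 105, 13.6 to 30), 8.88% of neutrophils (15 of 169), 8.33% of erythroid cells (29 of 348), 7.26% of B cells (214 of 2948, 6.35 to 8.26), 5.86% of macrophages (29 of 495) and 1.66% of NK cells (5 of 301, 0.542 to 3.83). The T cell and B cell intervals lie apart, and so do those of T cells and NK cells. T cells with Cd4 (23.5%) and with Cd8a or Cd8b1 (21.9%) had overlapping intervals. Shares depend on depth: after thinning to 1000 UMIs they were 4.68% of T cells (3.49 to 6.13), 2.01% of B cells (1.54 to 2.59), 0.333% of NK cells (0.00844 to 1.84) and 0% of monocytes (0 to 3.45), so the order of T over B cells was kept and the monocyte share was not detectable at that depth. In macrophages 171 of 495 cells were deep enough for thinning, with 2.92% positive. Ifit-positive cells held 85.8% of the Ifit UMIs of T cells and 84.0% of those of B cells. In monocytes they held 89.8%, in neutrophils 81.4%, in erythroid cells 72.4% and in macrophages 63.4%. The share was 49.3% in NK cells, 40.0% in plasma cells and 36.4% in conventional dendritic cells. The cells were chosen by these same UMIs, so a high share is in part built in, and no other genes were compared. A further 273 T cells and 286 B cells had exactly 1 Ifit UMI and lie at the cut. Which of the 2 mice the Ifit-positive cells came from cannot be told apart.

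**Figure D4:**
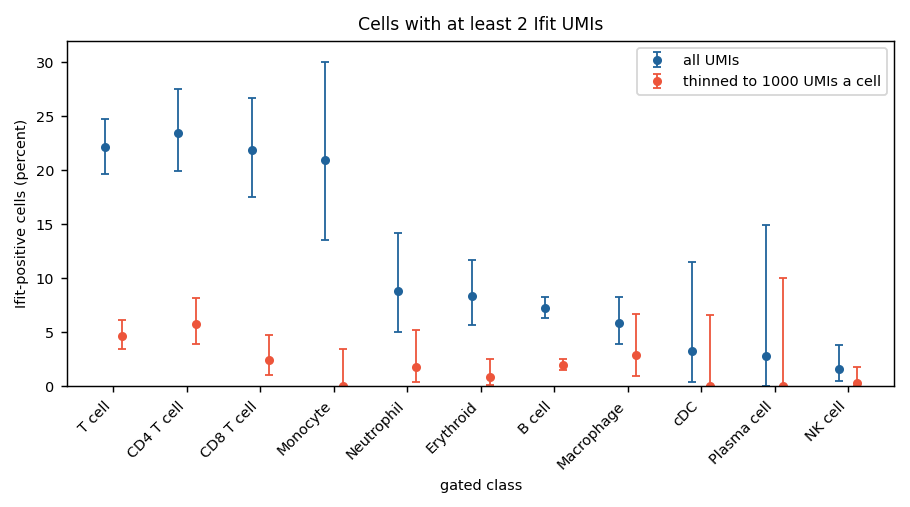
Share of cells with at least 2 Ifit UMIs in each gated class, in percent with exact 95% binomial intervals, from all UMIs (blue) and after thinning every cell to 1000 UMIs (red). T cells and monocytes lie above 20% from all UMIs, and after thinning T cells lie at 4.68% and B cells at 2.01%.

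Which other members went with the Ifit genes was then compared between Ifit-positive and Ifit-negative cells of the same class. In B cells 42 of the 45 other members were at least 2-fold higher in Ifit-positive cells, against 8.89% of 15808 detected genes (3.33% of those with at least 20 UMIs). In T cells 41 of 45 were, against 9.2% of 14478 genes (1.51% with at least 20 UMIs). The median log2 ratio of the members was 2.23 in B cells and 1.88 in T cells, beside -0.08 for all genes with at least 20 UMIs in both. No member was at least 2-fold lower in either class, against 5.2% of genes with at least 20 UMIs, as all 45 had, in B cells and 3.72% in T cells. Within T cells, 42 of 45 passed with Cd4 (background 11.4%) and 38 of 45 with Cd8a or Cd8b1 (10.0%). Ifit-positive cells were somewhat deeper, with medians of 6083.5 and 5033 UMIs in Ifit-positive and Ifit-negative B cells and of 7232 and 6742.5 in Ifit-positive and Ifit-negative T cells; the part of depth in the ratios was not tested. Own-lineage markers were alike, at 8560 and 9020 CPM in Ifit-positive and Ifit-negative B cells, while the 7 monocyte markers stood at 68.7 and 23.0 and Lyz2 at 425 and 185. In Ifit-positive and Ifit-negative T cells the own-lineage markers stood at 5760 and 5570 CPM, monocyte markers at 45.8 and 88.8, macrophage markers at 77.7 and 50.7 and Lyz2 at 115 and 58.5 (202 and 56.8 in T cells with Cd4). The part of these transcripts in the results was not tested.

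Rsad2 had the largest ratio in both lymphocyte classes, with 119 CPM in Ifit-positive and 5.07 in Ifit-negative B cells (log2 ratio 4.56, 4.16 to 4.97) and 98.1 and 4.76 in Ifit-positive and Ifit-negative T cells (4.37, 3.70 to 5.11). Mx1 was close, at 117 and 6.60 in B cells (4.15) and at 57.9 and 2.86 in T cells (4.34). Isg15 stood at 432 in Ifit-positive and 30.7 in Ifit-negative B cells (3.82, 3.64 to 3.99), and at 442 and 41.6 in T cells (3.41, 3.17 to 3.65). Thus Isg15 and Rsad2, erythroid-limited by level, were among the most Ifit-linked members in lymphocytes. Sp100 stood at 822 in Ifit-positive and 468 in Ifit-negative B cells (0.81), Znfx1 at 35.3 and 24.5 (0.53, 0.09 to 0.94) and Pml at 308 and 157 (0.98), and these were the 3 under 2-fold in B cells. In T cells the 4 under 2-fold were Ifi27l2a (0.99), Ifi35 (0.99), Znfx1 (0.88) and Sp100 (0.54). Pml in B cells and Ifi27l2a, Ifi35 and Znfx1 in T cells passed 2-fold under some other settings, as with at least 3 Ifit UMIs (1.27, 1.15, 1.2 and 1.29).

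**Figure D5:**
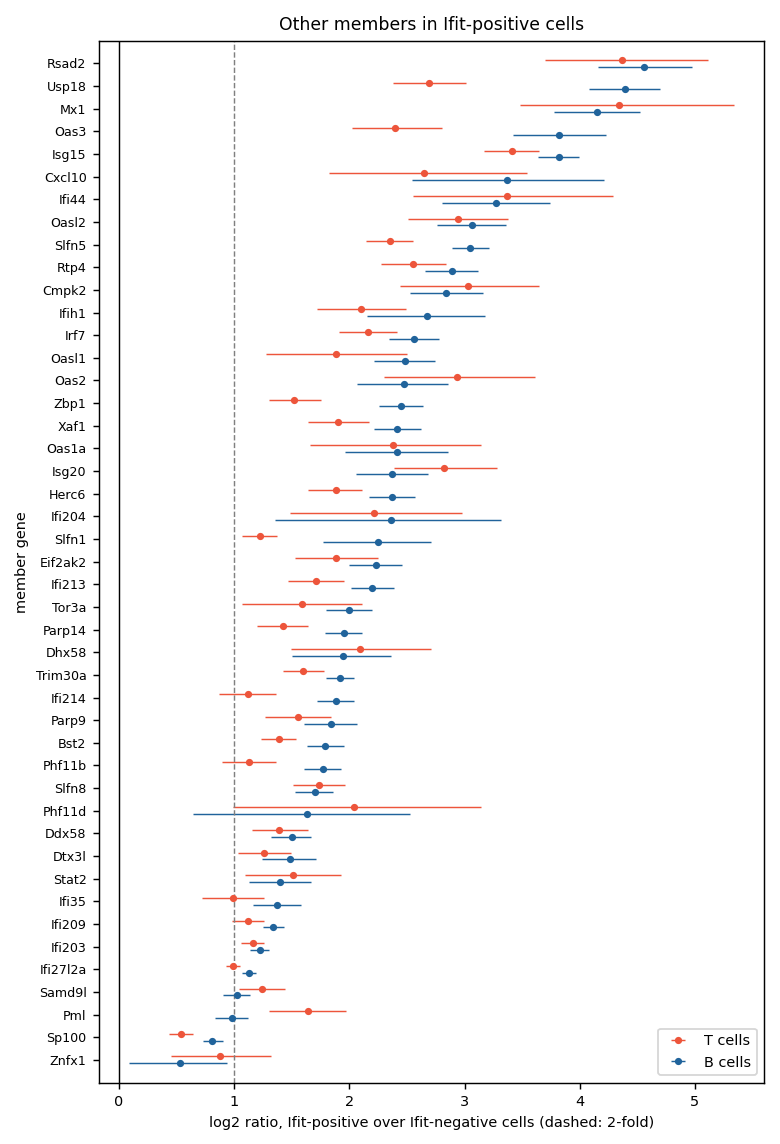
Log2 ratio of CPM in Ifit-positive over Ifit-negative cells for the 45 other members in T cells (red) and B cells (blue), with exact 95% intervals, ordered by the B cell value. All points lie above 0; Rsad2 is highest in both, and Usp18, Oas3 and Slfn1 lie at least 1 log2 unit further right in B cells.

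Some ratios differed between T and B cells. Usp18 had a log2 ratio of 2.69 in T cells and 4.39 in B cells, a T minus B difference of -1.70 (-2.13 to -1.27, by a normal approximation to the counting error). Its level in Ifit-positive cells was alike, at 181 CPM in T cells and 188 CPM in B cells, whereas Ifit-negative T cells stood at 28.1 and Ifit-negative B cells at 8.96. Oas3 (difference -1.42) and Slfn1 (-1.03) were the other 2 members with a difference of at least 2-fold, 3 of 45 in all, against 4.57% of genes with at least 20 UMIs in each class, so the count is near the background. For Slfn1 the levels were 424 in Ifit-positive and 182 in Ifit-negative T cells, and 37.9 and 7.98 in Ifit-positive and Ifit-negative B cells. No member had a ratio at least 2-fold larger in T cells, against 3.35% of those genes, and Pml came nearest (1.64 in T cells, 0.98 in B cells, difference 0.66). Whatever the size, the interval lay wholly on the B cell side for 19 of the 45 members and on the T cell side for 1 (Pml). The share of all genes with such intervals was not counted. Each of these compares pooled cells of 2 mice, and the interval covers counting error only.

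In monocytes 18 of 45 members were at least 2-fold higher in the 22 Ifit-positive cells, against 10.6% of 11494 genes, and the median log2 ratio was 0.92. Of the 42 with at least 20 UMIs, 16 were, against 2.26% of genes. Ifi44 (3.83, 1.63 to 7.04) had 11 and 2 UMIs in Ifit-positive and Ifit-negative monocytes, Cxcl10 (3.21) had 25 and 7, and Rsad2 (2.43) had 25 and 12. The 25 Cxcl10 UMIs were in 9.09% of the 22 Ifit-positive cells, so these ratios rest on few UMIs or few cells. Ifi27l2a, at 3380 in Ifit-positive and 2870 in Ifit-negative monocytes, had one of 0.23. Dendritic cell markers stood at 287 CPM in Ifit-positive and 95.1 CPM in Ifit-negative monocytes, and their part was not tested. In macrophages 32 of 45 were at least 2-fold higher (background 16.1%, median 1.42), and 21 of 33 with at least 20 UMIs (7.87%). Cxcl10 stood at 686 in the 29 Ifit-positive and 124 in the Ifit-negative cells. Dendritic cell markers stood at 865 and 110 CPM in Ifit-positive and Ifit-negative macrophages, and macrophage markers at 9130 and 13900, and their part was not tested. No member was at least 2-fold lower in monocytes or macrophages, against 8.19% and 18.5% of genes with at least 20 UMIs. In neutrophils 32 of 43 detected members were at least 2-fold higher, but so were 28.0% of all genes, and 26 of 31 were with at least 20 UMIs, against 24.8%. The median log2 ratio there was 1.89 for members and 0.42 for all genes with at least 20 UMIs. A further 6 were at least 2-fold lower, against 40.2% of genes, but 1 of the 31 with at least 20 UMIs was, against 17.2%. The 15 Ifit-positive neutrophils had a median of 3063 UMIs against 11252.5 in Ifit-negative ones, and neutrophil markers stood at 24200 and 97500 CPM, whose part was not tested. The 29 Ifit-positive erythroid cells held 114 UMIs of Ifit1, 4 of Ifit2 and 0 of Ifit3 and Ifit3b. Ifit1 thus chose nearly all of them, whereas Ifit-positive B cells held 737 UMIs of Ifit3 and 310 of Ifit1. In erythroid cells 34 of 44 were at least 2-fold higher, against 30.9% of all genes, and 23 of 25 with at least 20 UMIs, against 28.3%. There 3 were at least 2-fold lower, against 29.3%, but none of the 25 with at least 20 UMIs was, against 5.37%. Isg15 stood at 2980 in Ifit-positive and 665 in Ifit-negative erythroid cells (2.16), Rsad2 at 1270 and 548 (1.21) and Isg20 at 523 and 442 (0.24, 0.03 to 0.45), beside a median of 0.55 over all genes with at least 20 UMIs, which Isg20 did not reach. Macrophage markers stood at 159 CPM in Ifit-positive and 70 CPM in Ifit-negative erythroid cells, the class's own markers at 5590 and 4080 and Hbb-bs at 350000 and 421000, and their part was not tested. Isg15 and Rsad2 were therefore abundant in erythroid cells without any Ifit UMI too. Across the 6 classes, 8 members were at least 2-fold higher in every class (Isg15, Rsad2, Usp18, Oasl1, Cxcl10, Herc6, Ifi209 and Slfn8), 18 in 5, 9 in 4, 7 in 3, Ifi27l2a and Sp100 in 2 and Znfx1 in 1. Of the 42 members detected in all 6 classes 8 were thus higher in each, against 0.112% of 8936 genes detected in all 6. Several of these calls rest on few UMIs: Slfn8 in erythroid cells on 4 (1.19, -4.53 to 4.83), Cxcl10 on 5 in neutrophils and 4 in erythroid cells, Rsad2 in macrophages on 5, Oasl1 in macrophages on 9 (1.90, -0.72 to 4.13) and Ifi209 in erythroid cells on 11 (1.97, -0.25 to 3.94). With at least 20 UMIs in each class, 2 of 18 members (Isg15 and Herc6) were so in all 6, against 0.168% of 2384 genes.

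Reach was also read in Ifit-negative cells alone, a setting chosen after the data were seen. Having no Ifit UMI depends on depth. It held for 414 of 495 macrophages (median 822.5 UMIs) and 566 of 1078 T cells (6742.5 UMIs). The part of depth in the counts that follow was not tested. Of the 44 members that could be read, 25 were shared and 11 lineage-limited, beside 74.9% and 11.2% of 9719 genes. Oasl2, Oas1a, Mx1, Ifi44 and Slfn5 then joined the lineage-limited members, the first 3 and Slfn5 being highest in monocytes and Ifi44 in macrophages. Isg15, Isg20 and Rsad2 stayed highest in erythroid cells. The 4 Ifit genes are 0 there by definition, and Phf11d had under 100 UMIs.

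Type I and III interferon transcripts were close to absent. Of the 20 gene rows of these interferons, Ifnk (2 UMIs) and Ifnab (1 UMI) alone had a UMI in any kept cell. Ifna1, Ifna2, Ifna4, Ifna5, Ifnb1, Ifnl2 and Ifnl3 were among those with none, which allows up to 0.067 CPM each. Ifng, the type II interferon, stood at 221 CPM in NK cells and 21.3 in T cells, with a UMI in 52.5% and 7.79% of the cells. Macrophages stood at 16.4 CPM, but all 11 UMIs were in 1 of the 495 cells. Among the receptor and signalling genes listed, Socs1, a feedback inhibitor, was at least 2-fold higher in Ifit-positive B cells (54.0 CPM, against 15.8 in Ifit-negative ones, log2 ratio 1.78), and Irf9 in Ifit-positive T cells (126, against 62.1, log2 ratio 1.02). The receptor gene Ifnar1 was not: it stood at 52.0 in Ifit-positive and 60.8 in Ifit-negative B cells, and at 69.5 and 75.0 in T cells. Of 7 nucleic acid sensors listed, Tlr3 (1.78), Tlr7 (1.11) and Mb21d1 (1.17, 0.01 to 2.20) passed 2-fold in B cells, and in T cells Tlr7 (2.21) did and Tlr3 rested on 4 UMIs. Of 20 further interferon-stimulated genes with a row, 12 were at least 2-fold higher in Ifit-positive B cells, against 8.89% of all detected genes. In T cells 8 of 19 with a UMI were, against 9.2%. The same shares of all genes stand beside the sensors. Oas1g and Siglec1, on 4 and 3 UMIs, had none in Ifit-positive B cells. Ifit1bl1, a relative of Ifit1, had log2 ratios of 2.73 in B cells and 1.66 in T cells, and Lgals3bp of 2.69 and 1.23. Ifitm3, which blocks virus entry, had ratios of 2.39 and 0.95, and was 4440 CPM in monocytes, against 65.5 in B cells and 24.5 in T cells.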

How the data were processed

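The authors deposited 1 table of raw UMI counts, 31017 gene symbols by 7524 barcodes, summing to 46882070 UMIs (500 to 129686 a barcode); per the labels, transcripts of 10x 3′ libraries were mapped to mm10. The counting program is not given in the sources used here. No column or suffix ties a barcode to a mouse, so no comparison of genotypes was made. Members and lists were chosen with earlier results of these data known, and 1 listed gene is not reported here.

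Barcodes with under 200 detected genes or over 10% mitochondrial UMIs were left out. A barcode took the class with the highest share of its marker list detected, with at least 2 markers and a share at least 1.5 times that of every other list. These 2 settings, and the limit of 5% haemoglobin UMIs for classes other than erythroid, were set after the data were seen. Levels are summed UMIs per 1000000 UMIs of the class (CPM), with exact Poisson intervals. Log2 ratios carry exact conditional binomial intervals (their T minus B difference a normal approximation) and shares exact binomial (Clopper-Pearson) intervals, all at 95%. Classes with at least 30 cells and 100000 UMIs entered the breadth rule, and members needed 100 UMIs. All 49 members are named, with the listed interferon genes and, outside the lists, the 10 genes with the largest ratio in B and in T cells among those with at least 50 UMIs. The 936 barcodes left out held members at 4087 CPM, against 4465 in those kept. Doublets were kept; Scrublet called 137, and leaving them out was an alternative. The breadth rule and the ratios were tested on simulated data. Gene positions are from GENCODE vM21 (GRCm38) and promoters from RefSeq. Python 3.11.15, numpy 2.4.6, scipy 1.17.1, pandas 2.3.3, scanpy 1.11.5 and matplotlib 3.10.9 were used.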

Additional observations from a re-analysis of the deposited data

How the results depend on the processing

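With median-of-ratios size factors, or with immunoglobulin, haemoglobin and mitochondrial genes left out of the totals, 8 members rather than 3 were highest in erythroid cells. The sets differed: Ifit1, Irf7 and Herc6 joined in both settings, Usp18 and Xaf1 with size factors only, and Oas3 and Cmpk2 with the reduced totals only. At 50% of the highest class in place of 25%, 7 members were shared rather than 32 and 24 lineage-limited rather than 6; at 12.5%, 3 were lineage-limited; in Ifit-negative cells alone, 11 were. The Ifit-positive share of B cells was 7.26% as reported, 2.01% after thinning, 17.0% with at least 1 Ifit UMI and 4.41% with at least 3. That of T cells was 22.2%, 4.68%, 47.5% and 13.9%. Apart from what these definitions set by themselves, the cause was not tested. The counts of members at least 2-fold higher stayed within 1.5 times of those reported under every alternative run, from 34 to 44 in B cells and from 29 to 44 in T cells. No B or T cell ratio of a member changed sign. The number of members with the same highest class as reported was 36 of 49 with median-of-ratios size factors, where Ifit1, for one, was highest in erythroid cells and not in T cells, and 40 to 49 under the other alternatives. Of 637 values of single members' breadth under alternatives, 93 put the member in another class of reach or left it unclassed. Of 581 ratios in each of B and T cells, 12 in B cells and 13 in T cells fell under 2-fold while 6 and 8 crossed above it. No paired analysis was possible because the barcodes form 1 pooled sample with no map to the 2 mice, and for the same reason no replicate could be left out. Depth limits the values of macrophages, at a median of 828 UMIs a cell, and of conventional dendritic cells, where 3 counts make 9.67 CPM.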

Other observations

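Outside the lists, the 10 genes with the largest Ifit-positive over Ifit-negative ratios among those with at least 50 UMIs were read in B and in T cells. In B cells Gbp6, a guanylate-binding protein, stood at 22.5 CPM in Ifit-positive and 2.29 in Ifit-negative cells (log2 ratio 3.29, 2.57 to 4.03). Trim30c, a relative of the member Trim30a, stood at 90.6 and 9.58 (3.24). Phf11a (2.70), Tgtp2 (2.66), Ddx60 (2.36) and the death ligand Tnfsf10 (2.69) followed. Csf1 (2.78), Ccl6 (2.71), Hdc (2.44) and Il1b (2.25), known from myeloid cells, were among the same 10, beside the higher monocyte markers of those cells given above. In T cells the largest was Iigp1, an immunity-related GTPase, at 147 in Ifit-positive and 23.3 in Ifit-negative cells (2.65, 2.31 to 3.00). Trim30c (2.18), Gbp6 (2.12), Ddx60 (2.11), Hsh2d (2.09), Trim30d (2.0), Ube2l6 (1.95), which hands Isg15 to its ligase, Phf11c (1.83), H2-T24 (1.78) and Parp12 (1.75) completed the 10. Trim30c, Gbp6 and Ddx60 were on both lists.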
